A study of Mus musculus with 12 samples.

Results

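Islets of 8-week-old *Aldh1b1*tm1lacZ null mice were compared with islets of wild-type mice of the same age over all genes of the deposited table. The comparison uses 6 of the 12 libraries of the series, namely 3 of null animals (MUT218, MUT219 and MUT229) and wild-type replicates 1, 2 and 3, and 18126 of the 18351 genes were tested. Both groups were 8 weeks old, and all 6 libraries matched male mice by their X- and Y-linked genes. The null mice carry the *Aldh1b1*tm1lacZ allele, a knock-in of *lacZ* that was derived from a KOMP embryonic stem cell line. It is not restricted to a cell type, so that any effect of the allele before week 8, or outside the islet, is also part of the comparison. The control mice are labelled wild-type, and their strain is not given in the sources used here. No treatment differed between the groups, and all islets were kept for 2 h in RPMI-1640 medium with 10% FBS before RNA was made. Each library holds the islets of 1 mouse. Polyadenylated RNA was turned into strand-specific libraries, of which 75 bases were read from a single end.

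An islet is a cluster of endocrine cells. Beta cells make insulin and islet amyloid polypeptide, alpha cells glucagon, delta cells somatostatin and PP cells pancreatic polypeptide. In beta cells glucose enters through a transporter, is metabolised and raises ATP, which closes ATP-sensitive potassium channels, so that voltage-gated calcium channels open and insulin granules fuse with the membrane, a step that incretin hormones amplify through cAMP. Isolated islets also hold capillaries, stellate cells and macrophages, and they can carry acinar and duct tissue of the surrounding exocrine pancreas. *Aldh1b1* encodes a mitochondrial aldehyde dehydrogenase, an enzyme that oxidises aldehydes and that is known from pancreatic progenitors.

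The values are normalised counts, in which a gene's reads are divided by the size factor of the library, and the log2 fold change is null over wild-type of normalised count + 1, which understates the change of low genes. Libraries held 22573618 to 26744706 reads in null and 21665200 to 29248285 reads in wild-type islets. Genes were tested with limma across the 6 libraries, and a gene is called higher or lower at a Benjamini-Hochberg adjusted p under 0.05 over all 18126 genes. Wild-type replicate 2 lay between the mean of wild-type replicates 1 and 3 and the null mean in 70.0% of the genes called higher and in 74.1% of those called lower. This measure also counts genes in which replicate 2 lies between replicates 1 and 3. The median log2 distance of replicate 2 from the mean of replicates 1 and 3 was 0.16 in the higher and −0.24 in the lower genes. For the null libraries it was 0.72 and −1.33. Where a count depends on wild-type replicate 2 or on another library, the count without that library is given.

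*Aldh1b1* (ENSMUSG00000035561) was at or near 0 in all null libraries. Null animals MUT218, MUT219 and MUT229 had 1, 0 and 0 reads, against 40, 92 and 61 reads in wild-type replicates 1, 2 and 3. In normalised counts these were 0.671, 0 and 0 in null islets, against 58.9, 102 and 84.2 in wild-type islets, with no overlap. A count of 0 allows up to 2.85 normalised counts in null animal MUT219 and 2.17 in null animal MUT229, taken as 3 counts in each library and covering counting error only. *Aldh1b1* is on chromosome 4, and of the 5 annotated genes on each side the 1 next to it before was not matched to the table. The nearest neighbour on the other side, *Igfbpl1*, did not pass the test, at 0, 0.951 and 5.79 normalised counts in null islets, against 5.89, 4.45 and 15.2 in wild-type islets. Farther along, *Tmod1*, which caps actin filaments, had 1298, 1174 and 1268 normalised counts in null islets, against 685, 608 and 624 in wild-type islets (log2 fold change 0.96 ± 0.11, SE, adjusted p = 5.4e-04), and *Tdrd7* rose by less (0.43 ± 0.13). The gene that the table lists as *1300002K09Rik* (*Stra6l* in RefSeq) fell (−1.55 ± 0.38), and *Nnt*, a mitochondrial transhydrogenase whose sequence differs between mouse substrains, did not pass the test (587 ± 148 normalised counts in null and 536 ± 77.4 in wild-type islets, SD, n = 3 each).

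Reads of exocrine tissue set the libraries apart most. Acinar markers, digestive enzymes and the factors that drive them, took 12.8%, 24.2% and 13.9% of all reads in the null libraries MUT218, MUT219 and MUT229, against 50.3%, 49.5% and 55.7% in wild-type replicates 1, 2 and 3. Beta cell identity genes took 12.7%, 12.01% and 13.8% of the reads in null islets, against 3.06%, 5.29% and 2.67% in wild-type islets, and no library overlapped in either list (exact two-sided permutation test, p = 0.1, the smallest that 3 against 3 libraries can give, and 0.24 after adjustment over 12 lists). Alpha cell markers took 1.49% ± 0.448 in null and 1.12% ± 0.418 in wild-type islets (SD, n = 3 each), a difference within the spread (exact permutation p = 0.3). As these shares are of all reads, they depend on how much of a library acinar RNA takes. Out of the reads outside the acinar markers, beta cell identity genes took 15.5% ± 0.844 in null and 7.55% ± 2.53 in wild-type islets, endothelial markers 0.0843% ± 0.0173 and 0.144% ± 0.0221, macrophage markers 0.0450% ± 0.00231 and 0.0727% ± 0.00828, stellate and fibroblast markers 0.0712% ± 0.0117 and 0.182% ± 0.0519, and duct markers 0.197% ± 0.0136 and 0.464% ± 0.146. Out of all reads the shares of these 4 lists overlapped between the groups. They were 0.0697% ± 0.0138 in null and 0.0695% ± 0.0125 in wild-type islets for endothelial markers (exact permutation p = 0.9), 0.0374% ± 0.00371 and 0.0350% ± 0.00391 for macrophage markers (p = 0.5), 0.0595% ± 0.0132 and 0.0870% ± 0.0238 for stellate and fibroblast markers (p = 0.2) and 0.164% ± 0.0226 and 0.223% ± 0.0689 for duct markers (p = 0.3), so that these shares separated the groups only out of the reads outside the acinar markers, a denominator chosen after seeing the data. No acinar, endocrine, duct, endothelial, stellate or macrophage marker was at 0 in all libraries of a group, and of the 10 measured lymphocyte markers, 2 were at 0 in all null libraries. In bulk islets, fewer cells of a type and less RNA of that type per cell cannot be told apart.

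**Figure D1:**
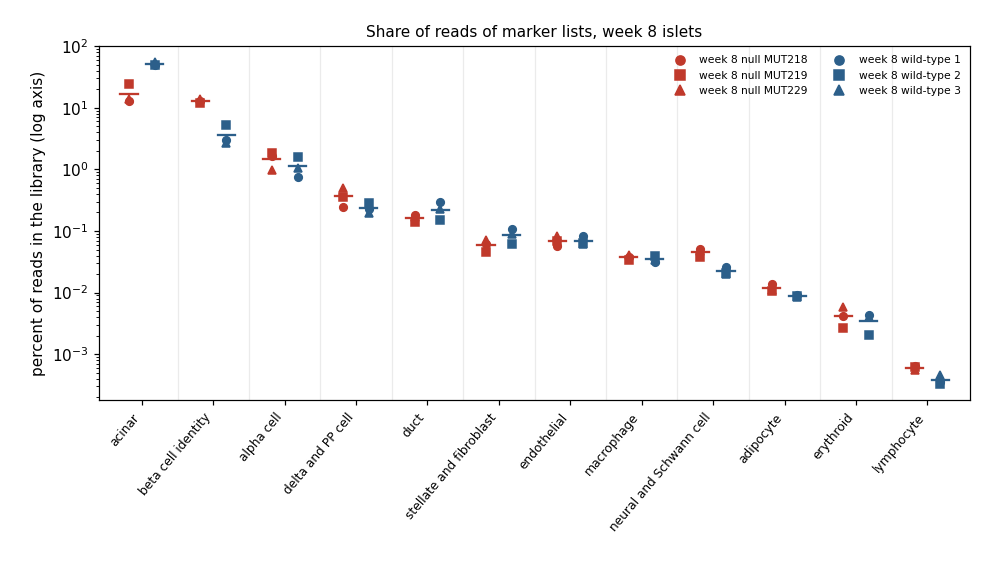
Percent of the reads of each library (log axis) taken by 12 marker lists, with null libraries in red left of wild-type libraries in blue; each point is a library and each line the mean of 3. Acinar shares were 12.8% to 24.2% in null and 49.5% to 55.7% in wild-type islets, and beta cell identity shares 12.01% to 13.8% in null and 2.67% to 5.29% in wild-type islets.

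Over all genes, 2234 were higher (12.3% of those tested) and 2860 lower (15.8%) in null than in wild-type islets. The counts of each list below are to be read against these shares. The values of the groups did not overlap in 43.6% of the genes. Without wild-type replicate 3, 988 were higher and 1688 lower, and the higher genes numbered 1119 when null animal MUT229 was left out and 1161 when MUT218 was. The split moved with transcript length as deposited. Of the 6042 shortest genes 316 were higher and 1020 lower, and of the 6042 longest 1212 were higher and 861 lower. With the trend on length removed within each library, 3143 were higher and 2391 lower (56.8% of the calls higher, against 43.9% before), and the median of all genes was 0.14 in place of 0.02. The size factors set the median gene near 0. When all reads of a library were taken as its scale instead, a setting chosen after seeing the data, the median of all genes was 0.81, and the median of each list relative to it stayed within 0.2 of the main value. The changes below are therefore changes relative to the typical gene.

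**Figure D2:**
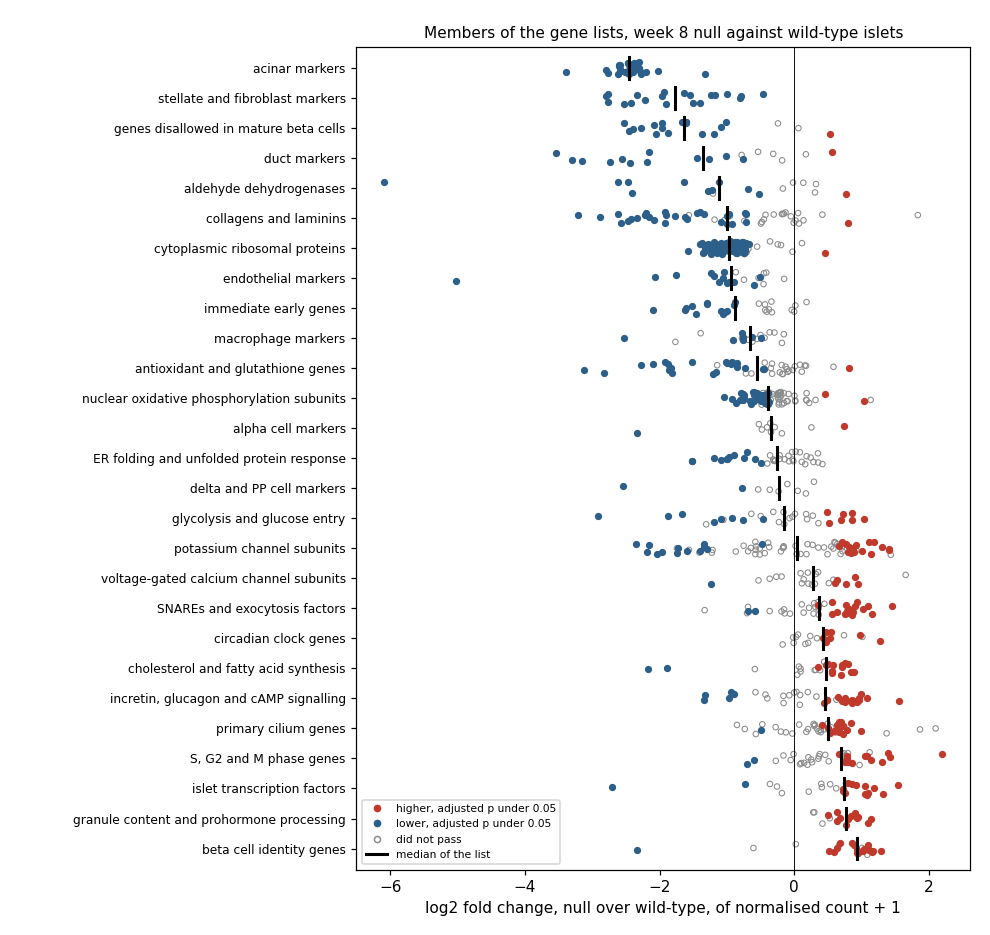
Log2 fold change of each tested member of 27 gene lists, ordered by their median (black bar), with red for members called higher and blue for those called lower in null islets and open circles for the rest. Acinar markers lie between −3.39 and −1.33, and the beta cell identity genes lie around a median of 0.93, with *Slc39a8* alone called lower.

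The genes that fell most in null islets were mainly adhesion molecules, cytokines and acute-phase genes. *Selp*, P-selectin, which endothelial cells use to catch leukocytes, had 135, 5.70 and 4.34 normalised counts in the null libraries MUT218, MUT219 and MUT229, against 6766, 707 and 4584 in wild-type replicates 1, 2 and 3 (log2 fold change −7.37 ± 1.16, SE, adjusted p = 0.0018). Wild-type replicate 2 was thus well below the other two wild-type libraries but above every null library. *Sele*, E-selectin, followed the same order, with 17.5, 5.70 and 15.2 in null islets, against 867, 80.2 and 565 in wild-type islets. So did *Vcam1*, a further leukocyte adhesion molecule, with 59.1, 18.1 and 18.1 in null islets, against 1152, 122 and 765 in wild-type islets. *Vwf*, von Willebrand factor, had 40.3, 12.4 and 22.4 in null islets, against 1769, 212 and 1203 in wild-type islets, and *Darc*, a chemokine-binding receptor of venules, had 10.1, 0.951 and 1.45, against 368, 56.8 and 308. All of these had no overlap between the groups.

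Secreted signals fell with them. *Csf3*, granulocyte colony-stimulating factor, had 24.2, 3.80 and 14.5 normalised counts in null islets, against 673, 85.7 and 399 in wild-type islets (−4.54 ± 0.76, adjusted p = 0.0023). *Ccl2*, a monocyte chemoattractant, had 37.6, 5.70 and 8.68 in null islets, against 264, 79.0 and 215 in wild-type islets. The acute-phase genes *Lbp* (−4.15 ± 0.83), *Lrg1* (−3.92 ± 0.51) and *Lcn2* (−3.72 ± 0.60) were also among the 12 largest falls, as were *Sprr1a* (−4.58 ± 0.71), an epithelial cornified envelope gene, and *Pdpn* (−3.88 ± 0.66), podoplanin.

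Because of this a list of 42 cytokine, chemokine, adhesion and acute-phase genes was drawn up after these values had been seen, so its counts are a description. Of the 38 tested members 27 were lower and 0 higher, with a median log2 fold change of −2.30, and 26 had no overlap with null islets lower, against 22.1% of all genes. At an unadjusted p under 0.05, 29 were lower and 0 higher. *Il6*, a cytokine that induces acute-phase genes, had 30.9, 38.03 and 28.9 normalised counts in null islets, against 775, 94.6 and 557 in wild-type islets (−3.37 ± 0.63). *Lif*, a cytokine of the same family, had 73.9, 39.0 and 61.5, against 1118, 204 and 852, and *Icam1* had 199, 131 and 149, against 3214, 513 and 2304. *C3*, the central complement component, fell by 3.37 on the log2 scale. Of the 27 called members, wild-type replicate 2 lay between the null mean and the mean of the other wild-type libraries in 25. The list held 11 members that did not pass, among them *Il1b* (175 ± 16.5 normalised counts in null and 172 ± 51.0 in wild-type islets), *Nfkbiz* (2610 ± 844 and 2643 ± 504), *Relb* (1481 ± 129 and 1522 ± 139) and *Birc3* (838 ± 180 and 794 ± 53.4), which are inducible genes of the NF-kB pathway as well. *Nfkbia*, the inhibitor of that pathway, fell, but by less (−0.81 ± 0.11, adjusted p = 0.0011). The count of lower members was 20 to 30 when each library was left out in turn.

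Promoters of the 3 lower members of this list that fell most among those holding a textbook NF-kB site are shown for the sites themselves. NF-kB is the family of transcription factors that induces many cytokine and adhesion genes. The sequences are RefSeq's, build GRCm38.p6, 250 bases before and 50 after the annotated start, 5′ to 3′ in the direction of the gene, with matches to the NF-kB consensus on either strand in capitals, which is GGG, any 2 bases and then TTTCC. *Il6* is at chr5:30012864-30013163 (+), *Cxcl2* at chr5:90903649-90903948 (+) and *Cxcl1* at chr5:90890995-90891294 (+).
Il6: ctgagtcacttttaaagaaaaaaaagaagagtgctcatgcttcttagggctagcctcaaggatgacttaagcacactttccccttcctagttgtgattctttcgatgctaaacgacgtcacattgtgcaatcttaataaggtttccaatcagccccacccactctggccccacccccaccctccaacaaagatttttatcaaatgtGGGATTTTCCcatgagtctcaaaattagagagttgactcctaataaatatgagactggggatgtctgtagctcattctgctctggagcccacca
Cxcl2: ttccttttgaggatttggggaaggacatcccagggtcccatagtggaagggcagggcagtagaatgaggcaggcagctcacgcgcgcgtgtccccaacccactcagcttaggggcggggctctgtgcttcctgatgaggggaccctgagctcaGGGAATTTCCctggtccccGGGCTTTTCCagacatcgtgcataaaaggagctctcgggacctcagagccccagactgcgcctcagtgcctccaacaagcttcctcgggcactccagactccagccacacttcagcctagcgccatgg
Cxcl1: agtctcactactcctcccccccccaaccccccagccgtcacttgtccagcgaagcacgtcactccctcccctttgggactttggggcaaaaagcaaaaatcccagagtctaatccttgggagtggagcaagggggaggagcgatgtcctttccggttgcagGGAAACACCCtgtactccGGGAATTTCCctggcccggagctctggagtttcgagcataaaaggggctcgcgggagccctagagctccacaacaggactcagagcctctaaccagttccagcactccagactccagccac
The *Il6* site starts 44 bases before the start, and *Cxcl2* and *Cxcl1* each hold 2 sites. *Cxcl2*, a neutrophil chemokine, had 40.3, 125 and 72.3 normalised counts in null islets, against 1377, 159 and 916 in wild-type islets, and *Cxcl1*, its neighbour in the chemokine cluster, had 132, 61.8 and 89.0, against 903, 146 and 635. In wild-type replicate 2 both were thus close to the highest null library. The motif was in 8 of the 28 members of the list with a promoter in the table (28.6%), and in 512 of 27025 promoters in all (1.89%). The list was made of cytokine, adhesion and NF-kB pathway genes, so its higher share does not relate the motif to the falls. Of the 20 lower members with a promoter 6 held it, close to the share in the whole list. A match is a description of letters and was not tested as a binding site.

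*Vwf* is also a member of the list of endothelial markers, and it fell in the range of *Selp*, *Sele* and *Vcam1* (−5.03 ± 0.69). The other endothelial markers had smaller fold changes, the largest being those of *Cldn5* (−2.07 ± 0.66) and *Sox18* (−1.76 ± 0.29). Of 20 endothelial markers 13 were lower and 0 higher, with a median log2 fold change of −0.94 (9 lower without MUT218, without wild-type replicate 1 or without wild-type replicate 3). *Pecam1*, CD31, had 776, 737 and 1029 normalised counts in null islets, against 2166, 1243 and 1777 in wild-type islets (−1.01 ± 0.20, adjusted p = 0.0055). *Plvap*, which builds the diaphragms of fenestrated capillaries, had 1471, 2267 and 2482, against 4619, 3802 and 4221. *Tie1* (−0.97 ± 0.16) and *Tek* (−1.11 ± 0.17), the receptors of the angiopoietin system, fell by a similar amount. *Kdr*, the main VEGF receptor, did not pass (1622 ± 517 in null and 2149 ± 229.04 in wild-type islets), nor did *Emcn* or *Cdh5*. The ratio of the means, null over wild-type, was 0.490 for *Pecam1* and 0.492 for *Plvap*, and 0.0120 for *Selp*, 0.0254 for *Sele*, 0.0236 for *Vwf* and 0.0467 for *Vcam1*.

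**Figure D3:**
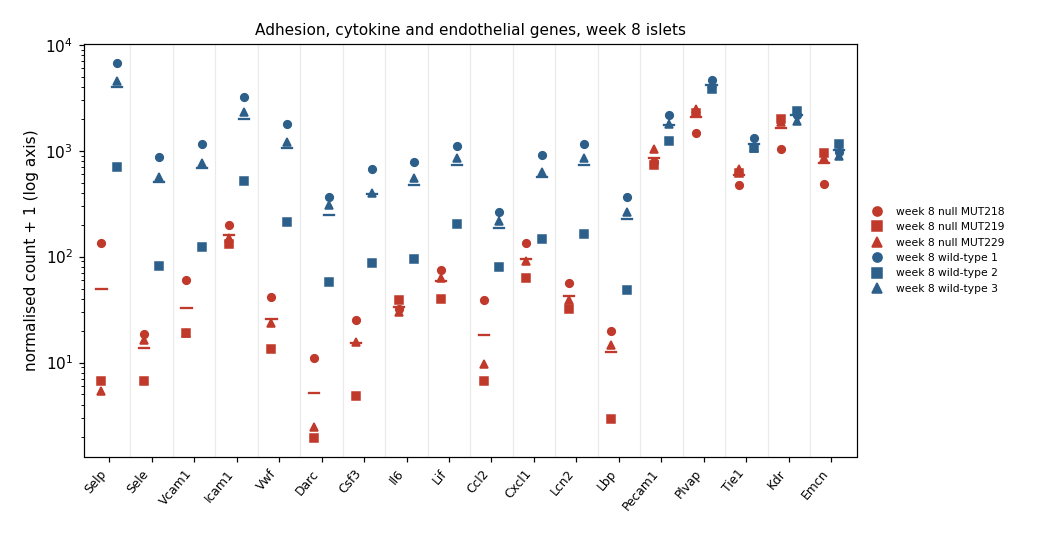
Normalised count + 1 (log axis) of 18 adhesion, cytokine and endothelial genes in each library, null in red left of wild-type in blue, with lines at the means of 3. From *Selp* to *Lbp* wild-type replicate 2 (blue square) sits below wild-type replicates 1 and 3. From *Pecam1* to *Emcn* the groups lie closer together, without overlap in *Pecam1* and with overlap in *Emcn*.

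All 20 stellate and fibroblast markers were called lower, with a median log2 fold change of −1.78 (15 to 20 when a library was left out). *Dcn*, decorin, a matrix proteoglycan, had 375, 208 and 302 normalised counts in null islets, against 2343, 1259 and 2512 in wild-type islets (−2.76 ± 0.28). The members ranged from −2.80 to −0.47. Of 51 collagen and laminin genes tested 28 were lower and 1 higher, with *Col1a1*, the main fibrillar collagen, at 567, 182 and 742 in null islets, against 3376, 1014 and 2862 in wild-type islets. Of 18 duct markers 12 were lower and 1 higher. *Krt19*, a keratin of duct cells, had 201, 139.8 and 128 normalised counts in null islets, against 2112, 609 and 1993 in wild-type islets (−3.15 ± 0.41), and *Aqp1*, a water channel, had 195, 137 and 67.3, against 2620, 623 and 1784. *Krt7*, also a duct keratin, went the other way, with 4096, 3135 and 3946 in null islets, against 2570, 2556 and 2385 in wild-type islets (0.56 ± 0.13, adjusted p = 0.0092). The adjusted p of *Krt7* reached 0.052 when a library was left out.

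Of 20 macrophage markers 8 were lower and 0 higher (median −0.66), 3 without wild-type replicate 3, 4 without null animal MUT229 and 5 without null animal MUT218. *Csf1r*, the receptor that macrophages depend on, had 245, 252 and 254 normalised counts in null islets, against 393, 549 and 481 in wild-type islets. *Cd14*, a co-receptor for bacterial lipopolysaccharide, was the exception in size, with 84.6, 50.4 and 64.4, against 580.3, 185 and 518 (−2.54 ± 0.39). Among 18 genes of MHC class II and antigen presentation 8 were lower (5 without wild-type replicate 3), *Cd74* and *H2-Aa* by −0.77 ± 0.14 and −0.74 ± 0.14 and *B2m*, the light chain of MHC class I, by −0.93 ± 0.17. Of 22 interferon-stimulated genes 9 were lower (14 without wild-type replicate 2, 5 without wild-type replicate 1, 4 without wild-type replicate 3 or without MUT229), with *Gbp2* at −2.59 ± 0.56. Of the 8 tested lymphocyte markers only *Ltb* passed, at 32.4 normalised counts or less in every library.

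All 33 acinar markers were called lower, with a median log2 fold change of −2.45 and a range from −3.39 to −1.33. *Cela2a*, an elastase, had 298435, 677761 and 329725 normalised counts in the null libraries MUT218, MUT219 and MUT229, against 2220290, 2391930 and 2926980 in wild-type replicates 1, 2 and 3. *Ctrb1*, a chymotrypsinogen, had 342451, 745641 and 402704, against 2295100, 1999740 and 2859050. Null animal MUT219 was the highest null library in both. *Bhlha15*, MIST1, a transcription factor of secretory acinar cells, fell by less than the enzymes, with 1398, 1601 and 1688, against 3362, 4345 and 4080 (−1.33 ± 0.13, adjusted p = 3.9e-04). The trypsin and elastase genes are near-identical copies, among which the counting may split reads. In null islets the genes with the highest mean were *Ins2*, *Ins1*, *Ctrb1* and *Cela2a*, and in wild-type islets *Cela2a*, *Ctrb1*, *Pnlip* and *Cela1*, with no hormone among the 10 highest.

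Promoters of the 2 acinar markers with the most counts in wild-type islets among those holding CACCTG, an E-box of the kind that the acinar factor PTF1 binds together with a second box, are shown for this site, in RefSeq's sequence, build GRCm38.p6, with matches on either strand in capitals. *Cela2a* is at chr4:141825956-141826255 (−) and *Cela1*, also an elastase, at chr15:100687871-100688170 (−), both read in the direction of the gene.
Cela2a: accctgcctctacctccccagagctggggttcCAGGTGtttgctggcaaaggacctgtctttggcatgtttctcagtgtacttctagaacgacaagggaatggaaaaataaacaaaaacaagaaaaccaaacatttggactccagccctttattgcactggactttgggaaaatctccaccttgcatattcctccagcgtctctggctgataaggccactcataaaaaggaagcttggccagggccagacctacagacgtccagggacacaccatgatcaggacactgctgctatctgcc
Cela1: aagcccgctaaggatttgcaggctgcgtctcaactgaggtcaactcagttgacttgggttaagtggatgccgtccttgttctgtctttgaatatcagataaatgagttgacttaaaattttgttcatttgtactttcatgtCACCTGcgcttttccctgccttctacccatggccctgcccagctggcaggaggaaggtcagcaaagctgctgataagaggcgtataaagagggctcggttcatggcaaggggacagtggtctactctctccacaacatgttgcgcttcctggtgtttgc
The motif was in 15 of the 25 acinar markers with a promoter in the table (60.0%) and in 6098 of 27025 promoters (22.6%). All 25 were called lower, so these shares do not relate the motif to the falls, and binding was not tested.

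Of 6 Reg genes, which encode secreted lectin-like proteins that acinar cells make, 3 were lower, 0 were higher and 3 did not pass (5 lower without null animal MUT219). *Reg1* had 59654, 116158 and 76996 normalised counts in null islets, against 355499, 324469 and 437017 in wild-type islets (−2.19 ± 0.33), whereas the fold changes of the family reached 1.21 among members that did not pass.

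On the endocrine side, null islets were higher in beta cell genes. Of 22 beta cell identity genes 16 were higher and 1 lower, with a median log2 fold change of 0.93 (8 higher without wild-type replicate 3, 10 without wild-type replicate 1 and 18 without wild-type replicate 2). *Ins2*, the major insulin gene, had 1445310, 1633480 and 1600240 normalised counts in null islets, against 595791, 1079000 and 618647 in wild-type islets, and *Ins1* had 533928, 622261 and 629038, against 241688, 430003 and 249864. Neither insulin gene overlapped between the groups, and neither passed the test (log2 fold change 1.08 ± 0.58, adjusted p = 0.20, and 1.00 ± 0.41, adjusted p = 0.099). The SE from limma takes in the spread of other genes of like abundance, not only that of the gene itself. *Iapp*, islet amyloid polypeptide, had 188438, 191720 and 220179 in null islets, against 79880, 126083 and 79535 in wild-type islets (1.104 ± 0.28, adjusted p = 0.017). Wild-type replicate 2 was the highest wild-type library in all 3 genes. *Prlr*, the prolactin receptor, through which beta cells expand in pregnancy, had 5025, 4868 and 4394 in null islets, against 1828, 2639 and 1522 in wild-type islets (1.29 ± 0.18). *Slc39a8*, a zinc importer listed among these genes, fell, with 31.6, 78.0 and 35.4, against 261, 160.3 and 282.

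The other hormones did not pass the test. *Gcg*, glucagon, had 273014, 372791 and 165435 normalised counts in null islets, against 224200, 479590 and 364099 in wild-type islets (−0.41 ± 0.44, adjusted p = 0.53). *Sst*, somatostatin, had 23610, 34634 and 21078, against 24237, 42964 and 20560, and *Ppy*, pancreatic polypeptide, had 13562, 29770 and 57959, against 36613, 33437 and 40831. The groups overlapped in all 3. Of 10 alpha cell markers, of which 3 were lower without wild-type replicate 1, *Gc* was higher (0.73 ± 0.15) and *Slc38a5*, an amino acid transporter that acinar cells also make, was lower (−2.33 ± 0.24), with 359.9, 654 and 389.9 in null islets, against 1723, 2446 and 2813 in wild-type islets. Of 9 delta and PP cell markers *Hhex*, a delta cell transcription factor (−0.78 ± 0.23), and *Lepr*, the leptin receptor (−2.55 ± 0.46), were lower.

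To read genes against the endocrine part of the sample, each library was also scaled to the mean log2 level of 14 genes that all islet endocrine cells make. This level was 13.4, 13.4 and 13.5 in the null libraries MUT218, MUT219 and MUT229, against 12.5, 13.1 and 12.5 in wild-type replicates 1, 2 and 3, so that the scale moved the median of all genes to −0.69. On it 52 of 18112 genes were higher (0.287%) and 7898 lower (43.6%). Of the 22 beta cell identity genes 1 was higher, *Prlr*, and 2 were lower, with a median of 0.22, and of 24 islet transcription factors 1 was higher, *Mafa*, and 5 were lower, with a median of 0.03. The 52 genes became 139 without wild-type replicate 2, 10 without null animal MUT218, 14 without null animal MUT229, 16 without wild-type replicate 3 and 23 without null animal MUT219. With the median in place of the mean of the 14 genes, 159 were higher and 3945 lower.

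Islet transcription factors were mostly higher before that scaling. Of 24, 13 were higher and 2 lower, with a median log2 fold change of 0.74 (0 lower without null animal MUT218 or without wild-type replicates 1 or 3). *Mafa*, a beta cell activator of insulin genes that marks maturity, had 1855, 1784 and 1100 normalised counts in null islets, against 493, 725 and 412 in wild-type islets, and relative to the endocrine genes it was higher by 0.83 (adjusted p = 0.018). *Neurod1*, a factor of endocrine differentiation, had 2613, 2480 and 2377, against 1141, 1272 and 1081 (1.097 ± 0.11), but relative to the endocrine genes it did not pass (0.39, adjusted p = 0.13). *St18* (1.08 ± 0.15) and *Myt1* (0.92 ± 0.12), related zinc finger factors, were higher as well. *Foxa1*, a factor of endoderm and ducts, fell to 4.03, 12.4 and 10.1, against 141, 14.5 and 92.5 in wild-type islets, and *Nfe2l2* (NRF2) was lower too (−0.73 ± 0.19), although 3 of the 6 fits without a library lost that call.

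The 12 largest rises among genes with a mean of at least 100 normalised counts included *Mafa*. *Ppp1r3b*, a targeting subunit that directs a phosphatase to glycogen, had 240.4, 234 and 187 normalised counts in null islets, against 33.9, 49.0 and 55.2 in wild-type islets (2.26 ± 0.24, adjusted p = 4.7e-04). Relative to the endocrine genes it was still higher by 1.54 (adjusted p = 0.0017). *Adora2b*, an adenosine receptor that raises cAMP, had 696, 257 and 412, against 119, 96.8 and 105 (1.96 ± 0.31). *Tmem108* had 368, 127 and 252, against 85.4, 59.0 and 34.5 and *St8sia5*, a sialyltransferase of gangliosides, had 545, 232 and 445, against 91.3, 141 and 92.5. In these 3 genes null animal MUT219 was the lowest null library, yet above every wild-type library. *Gabbr2*, which forms part of the GABA-B receptor, had 956, 431 and 759.6, against 225, 309 and 181. *Scnn1g*, a subunit of the epithelial sodium channel, and *Slc6a19*, a transporter of neutral amino acids, rose by the same amount (1.61 ± 0.24 and 1.61 ± 0.29). *Fhdc1* (1.55 ± 0.17), *Fer1l6* (1.64 ± 0.27) and *Diras2* (1.48 ± 0.25), a small GTPase, complete the 12 with *Mafa* and *Pde10a*. All 12 were also among the 52 that passed relative to the endocrine genes.

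Among the more abundant of those 52, with a mean of at least 500 normalised counts, were several signalling and secretion genes. *Syt4*, a synaptotagmin of dense-core vesicles, had 5377, 2585 and 3907 normalised counts in null islets, against 1339, 1536 and 1289 in wild-type islets (0.74 relative to the endocrine genes, adjusted p = 0.041). *Gpr158*, an orphan receptor, had 1589, 1522 and 1607, against 583, 763 and 518 (0.65, adjusted p = 0.016). *Rasgrf1*, an exchange factor for Ras that is known from beta cells, had 951, 948 and 853, against 368, 452 and 279 (0.64, adjusted p = 0.026). *Mns1*, a gene of motile cilia and flagella, had 726, 879 and 638, against 250.4, 317 and 268, and *Cdk14* and *Fhod3*, a formin that builds actin filaments, were higher by 0.69 and 0.66. The number of such calls moved with the library left out, as given above.

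Of 17 genes of granule content and prohormone processing 13 were higher and 0 lower, with a median of 0.77 (5 higher without wild-type replicate 3, and 8 without null animal MUT229 or without wild-type replicate 1). *Pcsk1*, the convertase that cuts proinsulin, had 5462, 5714 and 5759 normalised counts in null islets, against 2305, 3481 and 2272 in wild-type islets (1.1003 ± 0.16). *Slc30a8*, the zinc transporter of insulin granules, had 10110, 11061 and 10193, against 4632, 7130 and 4929. *Chga*, chromogranin A, was higher at 0.80 ± 0.26 (adjusted p = 0.046) but lost its call in 5 of the 6 fits without a library. Relative to the endocrine genes, 0 of the 7 members that are not in the reference were called in either direction (limma), with a median of −0.03. The remaining members, *Chga*, *Cpe* and *Scg2* among them, are reference genes themselves. This scale thus sets granule genes largely against granule genes, and it cannot show whether they changed apart from the endocrine part of the sample. Of 39 SNAREs and exocytosis factors 19 were higher and 2 lower, with *Pclo*, a scaffold of release sites (0.92 ± 0.12), *Snap25*, a SNARE of the plasma membrane (0.86 ± 0.13), and *Syt7*, a calcium sensor of insulin release (0.85 ± 0.13), among the higher, and *Vamp8* (−0.58 ± 0.12), a SNARE that acinar cells use for zymogen granules, and *Cadps2* (−0.69 ± 0.17) lower.

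*Kcnj11*, the pore subunit of the ATP-sensitive potassium channel, had 2615, 1727 and 2239 normalised counts in null islets, against 1068, 1366 and 1097 in wild-type islets (0.89 ± 0.16, adjusted p = 0.0038), and *Abcc8*, its sulfonylurea receptor subunit, had 12578, 17332 and 15005, against 8330, 12543 and 8477 (0.63 ± 0.19, adjusted p = 0.033). *Cacna1c* and *Cacna1d*, the pores of the L-type calcium channels, had 880.3, 1035 and 943, against 546, 517 and 425, and 1981, 2225 and 2272, against 1239, 1406 and 1166. Relative to the endocrine genes neither passed (0.23 and 0.06). Of 22 voltage-gated calcium channel subunits 5 were higher and 1, *Cacng7*, lower. Of 73 potassium channel subunits 16 were higher and 13 lower, with a median of 0.03 (9 higher and 8 lower without wild-type replicate 3, 8 lower without null animal MUT218, and 7 lower without null animal MUT219 or without wild-type replicate 1). Over all genes 12.3% were higher and 15.8% lower, so the count of lower members was near the share over all genes. *Kcnma1*, the BK channel, rose to 795, 798 and 745, against 293, 356 and 302 in wild-type islets (1.30 ± 0.13), and also relative to the endocrine genes (0.59, adjusted p = 0.033), as did *Kcnh1* (0.70, adjusted p = 0.036). *Kcnq1*, an epithelial potassium channel of exocrine cells and a diabetes risk locus, fell to 189, 296 and 154, against 884, 812 and 1083 in wild-type islets (−2.16 ± 0.23), and *Kcnn4*, a calcium-activated channel of epithelia and blood cells, to 50.4, 30.4 and 25.3, against 212, 83.5 and 222.

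**Figure D4:**
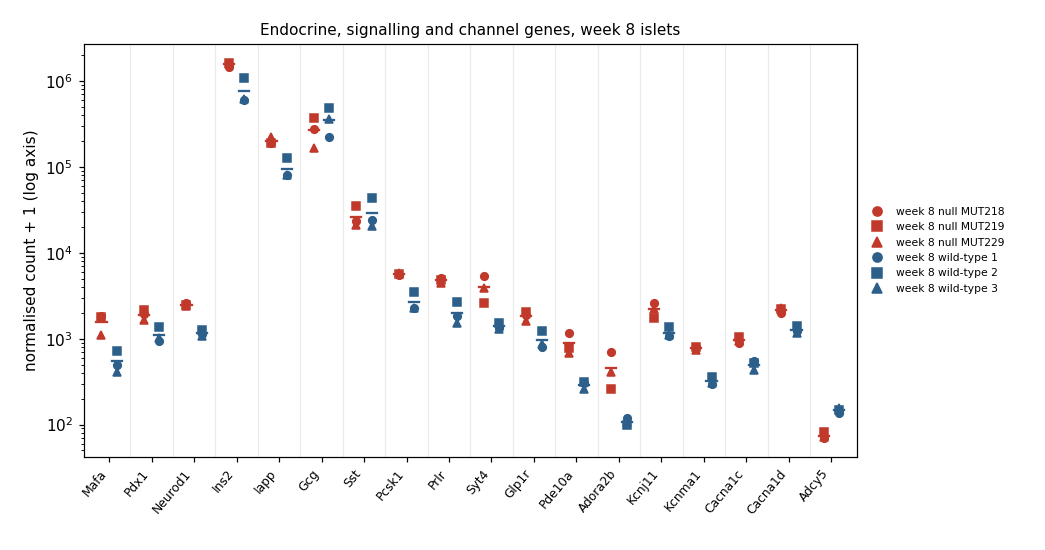
Normalised count + 1 (log axis) of 18 endocrine, signalling and channel genes in each library, null in red left of wild-type in blue, with lines at the means of 3. *Mafa*, *Pdx1*, *Neurod1*, the channels and the receptors lie higher in all null libraries, *Gcg* and *Sst* overlap, and *Adcy5* lies lower.

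In the incretin, glucagon and cAMP list 18 of 36 genes were higher and 5 lower, with a median of 0.46 (3 lower without null animal MUT218 or without wild-type replicate 3). *Glp1r*, the GLP-1 receptor, had 1872, 2019 and 1584 normalised counts in null islets, against 806, 1242 and 858 in wild-type islets (0.93 ± 0.17), and *Gipr*, the receptor of the other incretin, had 1430, 1848 and 1720, against 692, 1151 and 780.3. *Pde10a*, a phosphodiesterase that breaks down cAMP and cGMP, had 1169, 786 and 678, against 305, 309 and 259.6, and *Pde3b*, the main cAMP phosphodiesterase of beta cells, rose by less (0.75 ± 0.11). Among adenylyl cyclases *Adcy5* fell to 69.2, 80.8 and 70.2, against 134, 145 and 156 in wild-type islets (−0.97 ± 0.20, adjusted p = 0.0061), and *Adcy4* to 133, 136 and 198, against 685, 205 and 405 (−1.32 ± 0.37), a call that 4 of the 6 fits without a library lost. *Gnai1*, an inhibitory G protein subunit, fell (−0.90 ± 0.12), and *Gnaz* rose (1.08 ± 0.17). *Rapgef3*, EPAC1, a cAMP-activated exchange factor, was lower (−0.94 ± 0.22).

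Genes that mature beta cells keep silent were lower. Of 20 such disallowed genes 17 were lower and 1 higher, with a median log2 fold change of −1.64. *Ldha*, lactate dehydrogenase A, had 310.2, 368 and 323 normalised counts in null islets, against 1563, 835 and 1428 in wild-type islets (−1.88 ± 0.21, adjusted p = 5.2e-04), and *Slc16a1*, the lactate transporter MCT1, had 138, 91.3 and 122, against 492, 193 and 536. *Rest*, a repressor of neuronal and endocrine genes that endocrine cells switch off, had 80.6, 78.0 and 114, against 539, 243 and 424 (−2.08 ± 0.29). *Zfp36l1*, an RNA-binding protein that destabilises messages, had 431, 532 and 479, against 2960, 1812 and 3381. Other cell types make these genes, and the acinar, duct and stellate markers were lower in the same libraries (33 of 33, 12 of 18 and 20 of 20), whose part in the result was not tested. *Dnajc12* was the member called higher (0.53 ± 0.16), and 5 of the 6 fits without a library lost its call.

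Glycolysis genes moved in both directions. Of 30 genes of glycolysis and glucose entry 7 were higher and 8 lower, with a median of −0.16 (2 higher and 4 lower without wild-type replicate 3, 6 and 5 without MUT218, 4 and 6 without MUT219, and 4 and 5 without null animal MUT229 or without wild-type replicate 1). *Hk2*, a hexokinase of high affinity, had 43.0, 63.7 and 39.8 normalised counts in null islets, against 436, 325 and 354 in wild-type islets (−2.92 ± 0.23, adjusted p = 2.9e-04), and *Hk1* had 259, 184 and 267, against 657, 353 and 534. *Slc2a2*, the glucose transporter GLUT2, had 3850, 6973 and 4318, against 1847, 3326 and 2182. *Pfkfb2*, which sets the level of the glycolytic activator fructose 2,6-bisphosphate, rose by 0.86 ± 0.11, and *Eno2*, the enolase of neurons and endocrine cells, by 0.72 ± 0.15. *Myc*, a growth factor-induced regulator of glycolytic genes, fell to 415, 631 and 485, against 2306, 1410 and 2306 in wild-type islets (−1.96 ± 0.21).

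Among mitochondrial genes, 37 of 77 nuclear subunits of oxidative phosphorylation were lower and 2 higher, with a median of −0.40 (20 lower without wild-type replicate 3, and 23 without null animal MUT218 or without MUT229). With the length trend removed 18 were lower and 5 higher, and the median relative to all genes was −0.34. *Atp5o*, a subunit of the ATP synthase, had 700.3, 751 and 689 normalised counts in null islets, against 1381, 1418 and 1608 in wild-type islets (−1.04 ± 0.11), whereas *Cox6a2*, a tissue-specific subunit of cytochrome oxidase, had 537, 644 and 548, against 229.8, 386 and 249 (1.03 ± 0.20). Of 41 genes of pyruvate entry and the tricarboxylic acid cycle 13 were lower and 2 higher (5 lower without wild-type replicate 3, 6 without null animal MUT229, 7 without null animal MUT218, and 8 lower and 6 higher with the length trend removed), with *Gls2*, glutaminase 2, at 304, 550.5 and 262, against 1399, 1363 and 1608. *Fh1*, fumarate hydratase, was higher (0.91 ± 0.24), with null animal MUT218 above the others at 3183, against 1407 and 1877 in null animals MUT219 and MUT229. Of 76 mitochondrial ribosomal proteins 12 were lower (15.8%, the share over all genes) and 1 higher (4 lower without wild-type replicate 3, and 6 without null animal MUT218 or without MUT229).

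Cytoplasmic ribosomal protein genes were lower almost as a whole, with 68 of 82 lower and 1, *Rpl24*, higher, and a median of −0.98. *Rps19* had 1146, 1432 and 1270 normalised counts in null islets, against 2792, 3003 and 3000 in wild-type islets (−1.20 ± 0.12, adjusted p = 3.7e-04). With the length trend removed 63 were still lower. These genes have many pseudogene copies, so single values are uncertain. When all reads were taken as the scale, the list's median was −0.17, while that of all genes was 0.81.

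Of 44 antioxidant and glutathione genes 21 were lower, 1, *Glrx*, was higher and 22 did not pass, with a median of −0.55. *Gstp1*, a glutathione transferase, had 381, 596 and 415 normalised counts in null islets, against 1704, 1493 and 1856 in wild-type islets (−1.88 ± 0.17), *Cat*, catalase, had 212, 329 and 190.3, against 664, 888 and 1022, and *Prdx4*, the peroxiredoxin of the endoplasmic reticulum, had 661, 1420 and 823, against 3592, 3621 and 4700. In all 3 null animal MUT219 was the highest null library. It was the lowest null library for other lower members, among them *Gclc* (1395, 1002 and 1445, against 8772, 1699 and 6005 in wild-type islets) and *Txn1* (1062, 870 and 1013, against 2928, 1654 and 2409). Wild-type replicate 2 was the lowest wild-type library in both, and in *Gclc* it lay close to the highest null library. Of 17 aldehyde dehydrogenases tested, *Aldh1b1* included, 10 were lower, 1 was higher and 6 did not pass, with a median of −1.11. *Aldh1a1*, which makes retinoic acid, had 71.8, 123 and 83.2, against 469.8, 523 and 722 (−2.63 ± 0.24), *Aldh7a1* had 793, 1224 and 825, against 2629, 2802 and 3286, and *Aldh2*, a further mitochondrial enzyme of the family, had 814, 1322 and 1004, against 2180, 2506 and 2856 (−1.28 ± 0.18). *Aldh5a1*, which clears succinic semialdehyde in the breakdown of GABA, was the member called higher, with 670.1, 657 and 775, against 383, 442 and 409 (0.77 ± 0.13). *Aldh1a3*, a marker of dedifferentiated beta cells, did not pass, at 23.5, 91.3 and 25.3 in null islets, against 36.8, 26.7 and 29.0 in wild-type islets.

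**Figure D5:**
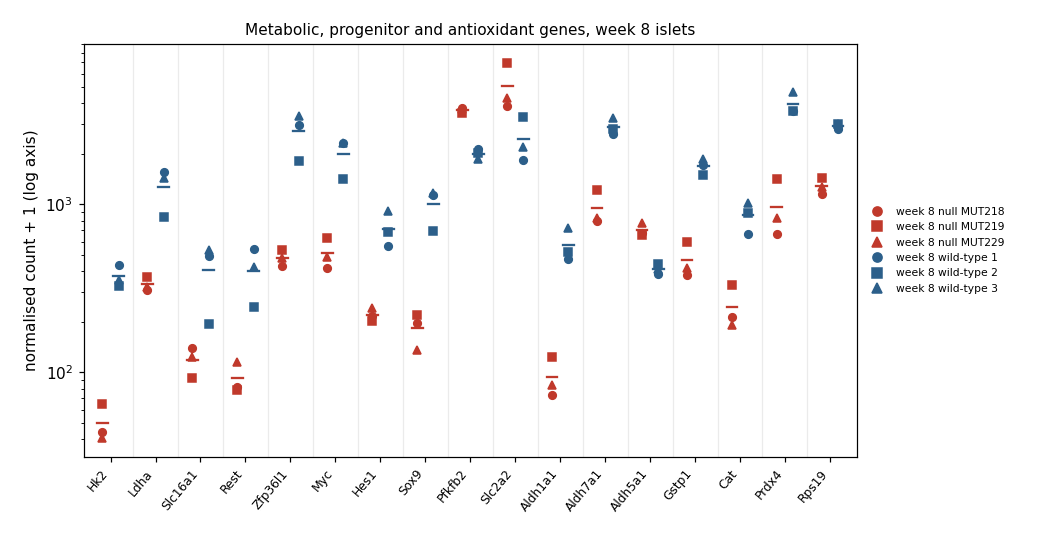
Normalised count + 1 (log axis) of 17 metabolic, progenitor and antioxidant genes in each library, null in red left of wild-type in blue, with lines at the means of 3. *Hk2*, *Ldha*, *Rest* and *Sox9* lie lower in all null libraries, *Pfkfb2*, *Slc2a2* and *Aldh5a1* higher, and in *Cat* and *Prdx4* null animal MUT219 (red square) is the highest null library.

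Among genes of protein folding in the endoplasmic reticulum and the unfolded protein response, 12 of 36 were lower and 0 higher, with a median of −0.25 (5 higher without null animal MUT219). *Atf3*, a stress-induced factor, had 8217, 11436 and 7363 normalised counts in null islets, against 21544, 27691 and 27696 in wild-type islets (−1.53 ± 0.19), *Chac1*, a late target of that response, had 4163, 2219 and 3928, against 8043, 10262 and 10268, and *Sel1l*, which removes misfolded proteins, had 4113, 3877 and 3759, against 7865, 9050 and 9963. *Hspa5* (BiP) and *Ddit3* (CHOP) did not pass, at 54763 ± 10861 and 3728 ± 1653 in null and 71505 ± 4685 and 3209 ± 424 in wild-type islets. Of 24 immediate early genes 13 were lower and 0 higher, with *Klf4* (−0.9994 ± 0.15) and *Zfp36* (−1.47 ± 0.22) among them. *Fos*, *Jun* and *Egr1*, the first genes to respond to isolation or a stimulus, overlapped between the groups, with *Fos* at 12007, 42359 and 17025 in null islets, against 16581, 41245 and 25700 in wild-type islets.

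Of 17 progenitor and dedifferentiation genes, *Aldh1b1* among them, 8 were lower, 1 was higher and 8 did not pass. The higher member was *Tph2*, a gene of serotonin synthesis (1.47 ± 0.36). *Sox9*, a factor of pancreatic progenitors that stays in adult ducts, had 195, 219.6 and 135 normalised counts in null islets, against 1136, 690.2 and 1174 in wild-type islets (−2.43 ± 0.24), and *Hes1*, a target of Notch signalling that holds back endocrine commitment, had 216.2, 202 and 242, against 561, 682 and 907 (−1.68 ± 0.18). *Gata4* had 101, 206 and 96.2, against 894, 675 and 961. Acinar and duct cells make these genes in the adult, and their share in the falls was not tested.

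Of 38 cell cycle genes, those used from S phase to mitosis, 13 rose and 2 fell, with a median of 0.69, but 1 was higher and 0 lower without wild-type replicate 3 or without MUT229, 5 without null animal MUT218, 6 without null animal MUT219 and 8 without wild-type replicate 1. *Mki67*, a marker of cycling cells, had 283, 293 and 397 normalised counts in null islets, against 243, 158 and 169.9 in wild-type islets (0.78 ± 0.21). The members called lower were *Pcna* (−0.60 ± 0.18) and *Rrm2* (−0.71 ± 0.20), which serve DNA synthesis. In the list of D and E cyclins, their kinases and inhibitors, 8 of 20 genes were called in either direction, against 28.1% of all genes. Among cell cycle inhibitors *Cdkn1c* (−1.30 ± 0.24) and *Cdkn1a* (−0.99 ± 0.31) were lower, whereas *Cdkn2b* (0.70 ± 0.16) and *Cdkn1b* (0.42 ± 0.14) were higher. *Cdk2* (−1.07 ± 0.22) was lower, and *Cdk4* (0.39 ± 0.11) and *Rb1* (0.37 ± 0.11) were higher. *Ccnd2*, the main D cyclin of beta cells, was higher too, with 12687, 13879 and 13184, against 8630, 10538 and 8302 (0.54 ± 0.13).

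Of 25 genes of cholesterol and fatty acid synthesis 14 were higher and 2 lower (5 higher without wild-type replicate 3 and 6 without null animal MUT229), with *Acly*, which makes cytosolic acetyl-CoA, at 16030, 15041 and 14565 normalised counts in null islets, against 7536, 10077 and 8147 in wild-type islets (0.83 ± 0.14), and *Sqle*, an early enzyme of sterol synthesis, at 3821, 3524.4 and 3929, against 2362, 2352 and 2197. *Acacb* (−2.17 ± 0.31) and *Scd1* (−1.90 ± 0.30) were the lower members. Of 19 clock genes 8 were higher and 0 lower (3 without null animal MUT218 or without MUT229, and 4 without wild-type replicate 3). *Bhlhe41*, a repressor of the clock, had 4937, 3039 and 4998, against 1944, 1464 and 1885 (1.27 ± 0.20), and *Nr1d2*, REV-ERB beta, 6174, 5362 and 5849, against 4351, 4082 and 4056. The time of day at which islets were taken is not given in the sources used here. Of 43 genes of primary and motile cilia 15 were higher and 1 lower (7 higher without wild-type replicate 3). Among the higher were *Rfx3*, which drives cilium genes and endocrine differentiation (0.73 ± 0.13), and *Ift57*, a carrier of cilium transport. *Ift57* had 1360, 1313 and 1265 in null islets, against 629, 648 and 703 in wild-type islets (0.99 ± 0.11, adjusted p = 4.9e-04). Relative to the endocrine genes neither passed (*Rfx3* 0.02, adjusted p = 0.96, and *Ift57* 0.28, adjusted p = 0.30).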

How the data were processed

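Poly(A) RNA of islets was sequenced, and the authors deposited normalised counts (a signal) for 18351 genes, that is, reads per gene divided by a DESeq size factor. DESeq 1.10.1, bedtools 2.11 and build mm9 are listed in the processing notes of the submitters, while the aligner is not given in the sources used here. Fold changes and p-values deposited beside them are the authors' own comparisons and were not used, and the P1 libraries entered only an alternative fit. Every week 8 value was a whole multiple of the value of 1 read within 0.001 (100% of values), so reads were recovered.

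Genes with a mean of at least 1 over the 6 libraries entered a limma fit (version 3.58.1, R 4.3.3) with a trend in variance, on log2(normalised count + 1), and p-values were adjusted by Benjamini-Hochberg. A second fit subtracted from each library the mean log2 level of 14 pan-endocrine genes, which were not tested themselves. Shares of reads were compared by an exact permutation test. Every pair of libraries of 1 group differed beyond counting noise (chi-square over its degrees of freedom between 17.99 and 108), so each counted as 1 sample. Limma p-values rest on the spread between these animals, drawn towards the trend of genes of like abundance.

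The comparison, gene lists and tests were chosen with earlier results of these data known. Genes named are *Aldh1b1*, its neighbours and *Nnt*, the 10 most abundant genes of each genotype, the 12 largest rises and falls with a mean of at least 100, no overlap and a common symbol, up to 4 higher and 4 lower members of each list with the smallest adjusted p, the 8 highest relative to the endocrine genes with a mean of at least 500, genes that the paper names, and further members that a comparison turns on. Neighbour names, promoters and promoter coordinates come from RefSeq on GRCm38.p6. Of the listed symbols 20 were not matched. Alternatives were TMM and upper-quartile scaling, factors without acinar and the most abundant genes, no filter or a mean of at least 10, pseudocounts of 0.1 and 10, edgeR, DESeq2 and limma-voom on recovered reads, all 12 libraries in 1 fit, removal of the length trend, an adjusted p of at most 0.1 and each library left out. Scaling by all reads, shares outside the acinar markers and list counts without each library were added after seeing the data. Some members of these lists are not reported here.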

Additional observations from a re-analysis of the deposited data

How the results depend on the processing

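Called genes numbered 2676 to 6267 (988 to 2905 higher, 1688 to 3362 lower) when each library was left out, and fewest without wild-type replicate 3. The other scalings, filters, pseudocounts and count tests kept the counts within 1.5 times the reported ones, except all reads as the scale, chosen after seeing the data, with 11272 called, 10223 higher and 1049 lower, where the median of all genes was 0.81. On that scale the log2 fold changes of *Cd74* (0.04), *H2-Aa* (0.08), *Rrm2* (0.10), *Pcna* (0.22), *Vamp8* (0.24), *Cadps2* (0.12), *Nfkbia* (0.00), *Hhex* (0.03), *Nfe2l2* (0.08), *Sst* (0.71), *Nfkbiz* (0.77) and *Relb* (0.78) changed sign, all below that median. These genes are examples, as the median of all genes was 0.02 on the main scale. The directions of other small falls, such as those of *Gcg*, *Ppy*, *Kdr* and *Emcn*, therefore hold only relative to the typical gene. Relative to the endocrine genes 4423 to 12138 were called (10 to 139 higher, 4407 to 11999 lower) when each library was left out, and with the median of the reference genes 4104 (159 higher, 3945 lower). The cause was not tested. Of the 148 named genes that passed, 12 lost their call with all 12 libraries in 1 fit, 1 to 27 without a library, and 0 to 4 under the other settings apart from all reads. Out of reads outside the acinar markers, a denominator also chosen after seeing the data, the differences of shares in percentage points, null minus wild-type, were −0.004079 for adipocyte, −0.5038 for alpha cell, −0.04789 for delta and PP cell, −0.2678 for duct, −0.05974 for endothelial, −0.002327 for erythroid, −7.604e-05 for lymphocyte, −0.02771 for macrophage, 0.007945 for neural and −0.1105 for stellate markers. No paired analysis was possible because the null animals carry numbers that no wild-type replicate shares. With 3 libraries a group the exact test cannot go below 0.1, and genes of few reads are limited by depth.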

Other observations

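Aminoacyl-tRNA synthetases, proteasome subunits and apoptosis genes had median log2 fold changes from −0.19 to −0.04. Of 20 synthetases 5 were lower and 0 higher in null islets (median log2 fold change −0.05), a larger share than the 15.8% lower over all genes. *Wars* (−0.92 ± 0.14) and *Vars* (−0.72 ± 0.11) were among them. Of 38 proteasome subunits 3 were lower and 1 higher (−0.04), and of 25 apoptosis genes 4 were lower and 0 higher (−0.19). Of 21 genes of fatty acid oxidation 8 were lower and 1 higher (2 lower without null animal MUT218 or without null animal MUT229, and 3 without wild-type replicate 3). Of 12 neural and Schwann cell markers 2 were lower and 1 higher, and of 5 adipocyte markers 1 was lower and 1 higher.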
